A study of Mus musculus with 4 samples.

Results

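The genes described here are 10 transcription factors of pluripotency and of the first cell lineages of the mouse embryo: *Pou5f1*, *Sox2*, *Nanog*, *Prdm14*, *Sall4*, *Zfp42*, *Tfap2c*, *Tead4*, *Cdx2* and *Gata6*. They were chosen by symbol, and all 10 have a row among the 26022 genes of the count table. The libraries are from late 2-cell (late 2C) ICR embryos, an outbred stock, in 2 groups of 2 libraries each. Embryos of the Mdivi-1 group were cultured as zygotes for 16 h in medium with 200 μM Mdivi-1, a small molecule used to inhibit DRP1, the GTPase that divides mitochondria. Embryos of the control group were cultured in the same way without the compound. Each group was a pool of 8 to 10 embryos amplified by the Smart-Seq2 method, so a library is a mean over embryos whose own spread is not seen. No source used here tells whether the 2 libraries of either group were made from different litters, and the p-values measure only the spread between these libraries, which may be technical.

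POU5F1 (OCT4), SOX2 and NANOG bind DNA together at genes of the inner cell mass and keep embryonic stem cells pluripotent. TEAD4 with its coactivator YAP1 turns on *Cdx2* and *Gata3* in outer cells, which become trophectoderm, and GATA6 opposes NANOG when the inner cell mass splits into epiblast and primitive endoderm. The late 2C stage comes just after the main wave of zygotic genome activation and before any of these lineages exists, so the transcripts measured here were either left by the oocyte or made early by the embryo.

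Promoter sequences from RefSeq (GRCm38.p6) were found for 5 of the 10 genes, in 7 entries. The core of the octamer that POU factors bind, ATGCAAA, which reads TTTGCAT when it lies on the opposite strand, was found within 250 bases upstream of a start site in 4 of these 5 genes: *Nanog*, *Sox2*, *Zfp42* and *Cdx2*. It was in 5 of the 7 entries, of which the 2 of *Nanog* overlap. Of all 32851 RefSeq promoters of the same length, 4.12% hold it on either strand. The RefSeq start used for *Sox2* lies 410 bases upstream of the GENCODE gene start given below. The motif was chosen after the sequences were seen, and a match is a run of letters and no proof of a bound site. The 4 stretches are shown because they belong to genes from nearly the top to the bottom of the level range below, while all of them hold this motif. They are written in the direction of transcription with the octamer core in capitals, and are chr6:122707239-122707488 (+ strand) for *Nanog*, chr3:34649745-34649994 (+ strand) for *Sox2*, chr8:43307010-43307259 (- strand) for *Zfp42* and chr5:147307250-147307499 (- strand) for *Cdx2*.
Nanog: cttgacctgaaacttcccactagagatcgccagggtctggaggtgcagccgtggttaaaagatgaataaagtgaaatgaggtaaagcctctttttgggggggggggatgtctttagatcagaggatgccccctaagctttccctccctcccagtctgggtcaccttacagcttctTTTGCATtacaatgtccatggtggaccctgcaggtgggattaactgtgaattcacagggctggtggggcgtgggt
Sox2: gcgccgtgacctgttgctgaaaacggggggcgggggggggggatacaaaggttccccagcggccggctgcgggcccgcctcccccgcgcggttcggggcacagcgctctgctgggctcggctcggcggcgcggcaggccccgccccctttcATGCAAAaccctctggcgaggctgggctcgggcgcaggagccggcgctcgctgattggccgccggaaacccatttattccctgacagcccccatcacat
Zfp42: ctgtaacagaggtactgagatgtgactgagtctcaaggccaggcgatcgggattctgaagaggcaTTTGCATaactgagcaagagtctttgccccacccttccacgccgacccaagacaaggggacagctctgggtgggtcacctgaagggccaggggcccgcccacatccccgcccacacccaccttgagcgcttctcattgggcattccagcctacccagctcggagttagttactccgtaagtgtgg
Cdx2: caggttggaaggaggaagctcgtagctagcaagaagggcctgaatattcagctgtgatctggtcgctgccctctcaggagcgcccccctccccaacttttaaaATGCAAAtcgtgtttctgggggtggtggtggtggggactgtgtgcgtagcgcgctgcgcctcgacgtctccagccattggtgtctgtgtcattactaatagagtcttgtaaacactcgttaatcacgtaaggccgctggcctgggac
In the *Nanog* stretch the letters ACAATG, a core bound by SOX factors, stand a single base after the octamer core. This SOX core was found in 2 of the 5 genes, *Nanog* and *Pou5f1*, or 3 of the 7 entries, and in 10.7% of all promoters. In *Pou5f1* it lay only in the entry whose RefSeq start is 2789 bases from the GENCODE gene start, and the other *Pou5f1* entry lacked it. The TEAD core GGAATG was found only in *Zfp42* among the 5 genes and in 12.6% of all promoters, and the GATA core AGATAA in none of the 5 genes and in 9.99% of all promoters. Both strands were searched for each, and the SOX core and the octamer core can overlap at their ATG, which they do not do in *Nanog*.

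The libraries held 17712075 and 18500928 counted reads in the Mdivi-1 group, against 20077326 and 18279626 in the control group, and 14793 to 16311 genes had a read in a library. Control replicates differed more from each other than Mdivi-1 replicates did (chi-square per degree of freedom of 115 against 52.9 in the Mdivi-1 group). Levels are given as raw counts or as CPM (reads scaled to a common library size) normalized by trimmed mean of M values (TMM), and differences as log2 fold changes of Mdivi-1 over control from the quasi-likelihood test of edgeR. That test ran on 14259 genes, and 0 of them (0%) passed a Benjamini-Hochberg adjusted p of 0.05, where the smallest adjusted p of edgeR was 0.109. By DESeq2 on the same genes, 461 (3.23%) were called higher and 392 (2.75%) lower at that threshold. This balance depended on single libraries, with 64 higher and 138 lower by DESeq2 without Mdivi-1 replicate 2, 54 and 28 without Mdivi-1 replicate 1, 740 and 640 without control replicate 1, and 571 and 200 without control replicate 2. At an unadjusted p of 0.05 edgeR had 1179 genes (8.27%) higher and 1089 (7.64%) lower. In 3727 genes (26.1%) both Mdivi-1 libraries lay above both control libraries, and in 3408 (23.9%) they lay below both. In such pooled embryos, fewer cells with a transcript and less of it per cell cannot be told apart.

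Of the 10 factors, 8 had enough reads to be tested, *Nanog* was near the detection limit (fewer than 10 reads in at least 2 of the 4 libraries) and *Cdx2* had no read in any library. None of the 8 (0 of 8) passed the adjusted threshold of edgeR. *Prdm14* and *Tead4* were lower at an unadjusted p of 0.05 by edgeR and none was higher (7.64% and 8.27% of all genes). DESeq2 called 1 of the 8, *Prdm14*, lower and 0 higher (2.75% and 3.23% of all genes). The groups did not overlap for *Prdm14*, *Tead4* and *Tfap2c*, which were lower in both Mdivi-1 libraries, nor for *Sox2*, which was higher in both. The background for these 2 counts is the 23.9% and 26.1% of all genes given above. The other 4 tested genes overlapped between the groups. The median log2 fold change of the 8 was -0.42, beside 0.03 over all genes tested.

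**Figure D1:**
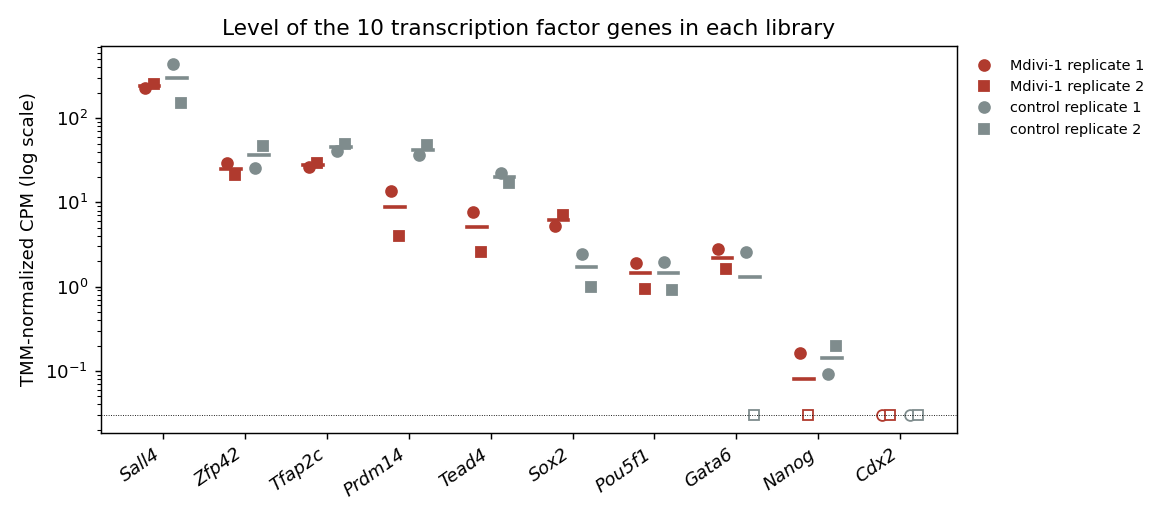
TMM-normalized CPM on a log scale for each of the 10 genes in each library, with Mdivi-1 libraries in red left of control libraries in grey, bars at group means, and genes in the order of their level per kilobase. Open symbols on the dotted line are libraries with no read; *Prdm14*, *Tead4* and *Tfap2c* lie lower in both Mdivi-1 libraries, *Sox2* higher in both, and *Cdx2* has no read anywhere.

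*Prdm14*, a PR-domain factor that represses fibroblast growth factor signalling and DNA methyltransferases in stem cells and primordial germ cells, had the most negative log2 fold change of the 8. It had 255 and 77 reads in the Mdivi-1 libraries, against 808 and 724 in the control libraries. In CPM this was 13.7 and 4.01 in the Mdivi-1 group, against 36.8 and 47.5 in the control group. The highest Mdivi-1 library was thus below the lowest control library, and the ratio between the 2 Mdivi-1 libraries was larger than that between the 2 controls. The means were 8.85 ± 6.84 CPM in the Mdivi-1 group and 42.1 ± 7.59 CPM in the control group (SD, n = 2 each), a log2 fold change of -2.25 (SE 0.60, edgeR unadjusted p = 0.00619, adjusted p = 0.182). DESeq2 gave -2.27 with an adjusted p of 0.00909. That call was lost without Mdivi-1 replicate 2 (DESeq2 adjusted p = 0.222) and without control replicate 2 (DESeq2 adjusted p = 0.128), while the edgeR adjusted p fell under the threshold without control replicate 1 (0.0472). By edgeR the log2 fold change was -3.39 without Mdivi-1 replicate 1 and -1.64 without Mdivi-1 replicate 2. The gene (ENSMUSG00000042414) lies on the minus strand of chromosome 1 from 13113457 to 13127163 in GRCm38, the build of all positions here.

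*Tead4*, the TEAD-domain partner of YAP1 that trophectoderm formation requires, stood next to it in size of difference. The Mdivi-1 libraries had 144 and 49 reads, against 496 and 260 in the control libraries. These were 7.73 and 2.55 CPM in the Mdivi-1 group, against 22.6 and 17.1 CPM in the control group. As for *Prdm14*, Mdivi-1 replicate 2 was the lowest library and no Mdivi-1 library reached a control. The means were 5.14 ± 3.66 CPM in the Mdivi-1 group and 19.8 ± 3.90 CPM in the control group (SD, n = 2 each), with a log2 fold change of -1.95 (SE 0.66, edgeR unadjusted p = 0.0189, adjusted p = 0.232). The DESeq2 adjusted p was 0.0852, and it lay between 0.0842 and 0.556 with any 1 library left out. By edgeR the difference was -2.96 on the log2 scale without Mdivi-1 replicate 1 and -1.38 without Mdivi-1 replicate 2. *Tead4* (ENSMUSG00000030353) is on the minus strand of chromosome 6, from 128224288 to 128300823.

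*Tfap2c*, an AP-2 factor that acts with TEAD4 on the way to trophectoderm, was 26.2 and 29.1 CPM in the Mdivi-1 libraries, against 41.2 and 49.9 CPM in the control libraries. In reads these were 489 and 559 in the Mdivi-1 group and 905 and 761 in the control group. The groups did not overlap, and the libraries of each lay close together: 27.7 ± 2.04 CPM in the Mdivi-1 group and 45.6 ± 6.19 CPM in the control group (SD, n = 2 each). The log2 fold change was -0.72 (SE 0.34), and its edgeR unadjusted p of 0.0722 (adjusted p = 0.360) did not reach the threshold. *Tfap2c* (ENSMUSG00000028640) lies on chromosome 2 from 172549593 to 172558622 on the plus strand.

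*Cdx2*, the homeobox gene that defines the trophectoderm, had 0 reads in all 4 libraries. A count of 0 allows up to 3 reads in a library, and the exact Poisson limit at 95% is 3.69 reads, for counting error only. *Cdx2* transcripts were therefore not detectable at this depth in either group. The gene (ENSMUSG00000029646) is on the minus strand of chromosome 5, from 147300805 to 147307270.

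*Sox2*, the SRY-box partner of POU5F1, was the only tested factor whose Mdivi-1 libraries both lay above the controls. It had 99 and 137 reads in the Mdivi-1 libraries, against 53 and 15 in the control libraries. In CPM these were 5.31 and 7.14 in the Mdivi-1 group, against 2.41 and 0.984 in the control group. The Mdivi-1 libraries were close together, and control replicate 2 was the lowest. The means of 6.23 ± 1.29 CPM in the Mdivi-1 group and 1.70 ± 1.01 CPM in the control group (SD, n = 2 each) gave a log2 fold change of 1.87, with an SE of 0.99 and an edgeR unadjusted p of 0.0985 (adjusted p = 0.404), so the difference did not pass the test. DESeq2 gave an adjusted p of 0.370. *Sox2* (ENSMUSG00000074637) lies on chromosome 3 from 34650405 to 34652461 on the plus strand, within an intron of the long non-coding gene *Sox2ot*, with which it shares 0 exonic bases. *Sox2ot* itself had 0 and 28 reads in the Mdivi-1 libraries and 21 and 0 in the control libraries.

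*Pou5f1*, which encodes the POU factor OCT4, was almost level between the groups in CPM, at a low count. Its reads were 36 and 18 in the Mdivi-1 libraries, against 43 and 14 in the control libraries. With 14 reads in control replicate 2, counting error alone spans 7.65 to 23.5 reads (exact Poisson interval, 95%). In CPM the values were 1.93 and 0.938 in the Mdivi-1 group, against 1.96 and 0.919 in the control group. Replicate 1 was the higher library in each group, and the range of one group lay almost on that of the other. The log2 fold change was -0.01 with an SE of 1.50 (edgeR adjusted p = 0.999), so a difference of that SE in either direction could not be told from none. *Pou5f1* (ENSMUSG00000024406) is on chromosome 17 from 35506018 to 35510772 on the plus strand. Of its 2248 exonic bases, 317 (14.1%) are shared in GENCODE M21 with the antisense gene *Gm19553*. Smart-Seq2 keeps no strand, and reads that fall on both genes would be left uncounted where both are annotated. *Gm19553* has no row among the counted genes, so whether *Pou5f1* lost reads in this way is not known. Among the copies and relatives of *Pou5f1*, *Pou5f1-rs4* had 0 and 4 reads in the Mdivi-1 libraries and none in the controls.

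*Nanog*, the homeobox gene of the naive epiblast, had 3 and 0 reads in the Mdivi-1 libraries, against 2 and 3 in the control libraries. The exact Poisson interval (95%) is 0.619 to 8.77 for 3 reads and reaches 3.69 for 0 reads, so the 4 libraries are within counting error of one another. No fold change is given. *Nanog* (ENSMUSG00000012396) is on the plus strand of chromosome 6, from 122707489 to 122714633.

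*Sall4*, a zinc finger gene of oocytes and stem cells, had by far the most reads: 4208 and 4903 in the Mdivi-1 libraries, against 9791 and 2297 in the control libraries. Its CPM was 226 and 256 in the Mdivi-1 group, against 446 and 151 in the control group. Both Mdivi-1 libraries lay between the 2 controls. The log2 fold change was -0.31 (SE 0.48, edgeR adjusted p = 0.829), and its direction depended on the control: it was 0.67 without control replicate 1 and -0.91 without control replicate 2. *Sall4* (ENSMUSG00000027547) lies on the minus strand of chromosome 2 from 168748332 to 168767943, and 526 of its 5536 exonic bases (9.50%) are shared with *Gm14261* on the other strand, which had at most 19 reads in a library.

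*Zfp42* (REX1), a zinc finger gene used as a marker of naive stem cells, had 540 and 408 reads in the Mdivi-1 libraries, against 562 and 716 in the control libraries. Its CPM was 29.0 and 21.3 in the Mdivi-1 group, against 25.6 and 47.0 in the control group. Control replicate 1 lay between the 2 Mdivi-1 libraries, so the groups overlapped. The log2 fold change was -0.53 (SE 0.43, edgeR adjusted p = 0.623), and without control replicate 2 it was -0.05. *Zfp42* (ENSMUSG00000051176) is on the minus strand of chromosome 8 from 43295063 to 43306980.

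*Gata6*, the zinc finger gene that specifies primitive endoderm, had 52 and 31 reads in the Mdivi-1 libraries, against 57 and 0 in the control libraries. Its CPM was 2.79 and 1.62 in the Mdivi-1 group, against 2.59 and 0 in the control group. Counting error does not span the gap between the 2 controls, since the exact Poisson interval (95%) is 43.2 to 73.9 for 57 reads and reaches 3.69 for 0 reads. The log2 fold change of 0.75 (SE 1.96, edgeR adjusted p = 0.911) turned to -0.26 without control replicate 2. *Gata6* (ENSMUSG00000005836) lies on chromosome 18 from 11052064 to 11085635 on the plus strand, with 93 exonic bases (1.43%) shared with *1010001N08Rik*.

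**Figure D2:**
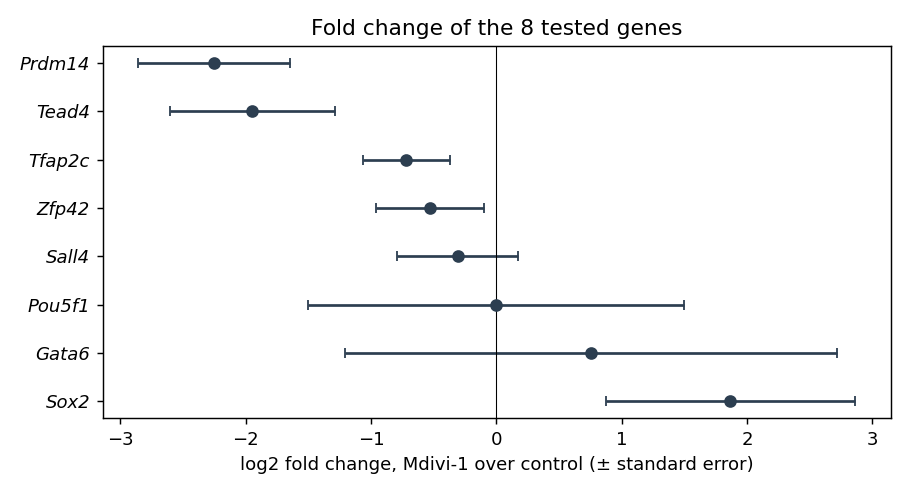
Log2 fold change of Mdivi-1 over control, with its standard error as a bar, for the 8 tested genes, from edgeR's quasi-likelihood fit. *Prdm14* (-2.25) and *Tead4* (-1.95) lie farthest to the left and *Sox2* (1.87) farthest to the right, while the bars of *Pou5f1* and *Gata6* reach far to both sides of 0.

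Per kilobase of exon, which allows genes to be compared, the mean level over the 4 libraries ran from 48.7 CPM per kb for *Sall4* to 0 for *Cdx2*. *Sall4* stood above 94.4% of the 18686 genes with a read and a length. *Zfp42* came next at 16.3 CPM per kb (above 86.6%). *Tfap2c* at 9.96 and *Prdm14* at 9.94 were level in that mean, but their order differed by group. *Prdm14* had 5.34 and 1.57 CPM per kb in the Mdivi-1 libraries, below the 7.13 and 7.92 of *Tfap2c* there, while in the controls it had 14.3 and 18.5 CPM per kb, above the 11.2 and 13.6 of *Tfap2c*.

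A similar exchange was seen lower down, between *Tead4* with a mean of 3.47 CPM per kb and *Sox2* with 1.93. In the Mdivi-1 libraries *Sox2* had 2.58 and 3.47 CPM per kb, above *Tead4* with 2.15 and 0.710. In the control libraries *Tead4* had 6.27 and 4.74 CPM per kb, above *Sox2* with 1.17 and 0.478. *Pou5f1* followed at 0.639 CPM per kb, above 39.2% of genes, then *Gata6* at 0.269 and *Nanog* at 0.0501. *Sall4* held the top place in every library. *Zfp42* was next to it in both Mdivi-1 libraries (15.4 and 11.3 CPM per kb) and in control replicate 2 (25.0), but in control replicate 1 its 13.6 CPM per kb lay under the 14.3 of *Prdm14*. *Pou5f1* was above *Gata6* in each library. *Pou5f1* had 0.860 and 0.417 CPM per kb in the Mdivi-1 libraries and 0.870 and 0.409 in the control libraries, and *Gata6* had 0.429 and 0.248 CPM per kb in the Mdivi-1 libraries and 0.399 and 0 in the control libraries.

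The wider pluripotency network was described with a list of 30 genes beside the 10, of which 27 were tested. Their median log2 fold change was -0.06, with 12 positive and 15 negative values. At an unadjusted p of 0.05 edgeR had 5 of the 27 lower and 0 higher (7.64% and 8.27% of all genes). DESeq2 called 4 lower and 0 higher at an adjusted p of 0.05 (2.75% and 3.23% of all genes). The count of lower genes fell without Mdivi-1 replicate 1 and rose without control replicate 1, and with some libraries left out genes were also higher. Both Mdivi-1 libraries lay above both controls in 6 of the 27 and below both in 7, beside 26.1% and 23.9% of all genes. Among the 6 were *Il6st*, a receptor subunit for LIF (19.1 and 31.5 CPM in the Mdivi-1 libraries, against 10.5 and 13.6 CPM in the control libraries, edgeR unadjusted p = 0.0530), and the zinc finger gene *Klf4* (112 and 56.0 CPM in the Mdivi-1 libraries, against 54.2 and 44.2 CPM in the control libraries, edgeR unadjusted p = 0.0896). The 5 lower genes with all libraries were *Dppa2*, *Dppa4*, *Fbxo15*, *Fgf4* and *Nr5a2*, and none of them passed the adjusted threshold of edgeR.

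*Dppa2* and *Dppa4* encode a pair of SAP-domain proteins that bind each other and in mouse embryonic stem cells act upstream of *Dux* and the 2C genes. *Dppa2* had 136 and 169 CPM in the Mdivi-1 libraries, against 402 and 427 CPM in the control libraries (log2 fold change -1.44, SE 0.30, edgeR adjusted p = 0.149, DESeq2 adjusted p = 0.000259). *Dppa4* had 181 and 289 CPM in the Mdivi-1 libraries, against 514 and 675 CPM in the control libraries (log2 fold change -1.34, SE 0.35, edgeR adjusted p = 0.179, DESeq2 adjusted p = 0.00366). In both genes the highest Mdivi-1 library was well below the lowest control, and both DESeq2 calls were lost without Mdivi-1 replicate 1 (DESeq2 adjusted p = 0.183 for *Dppa2* and 0.371 for *Dppa4*).

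*Fbxo15*, an F-box gene used as a reporter of the pluripotent state, had 369 and 577 CPM in the Mdivi-1 libraries, against 861 and 1334 CPM in the control libraries (log2 fold change -1.21, SE 0.38, DESeq2 adjusted p = 0.0132). *Fgf4*, a growth factor gene with a known POU and SOX enhancer, had 31.1 and 49.0 CPM in the Mdivi-1 libraries, against 123 and 70.9 CPM in the control libraries (log2 fold change -1.28, SE 0.40, DESeq2 adjusted p = 0.0472). Groups did not overlap in either gene. The *Fbxo15* call was lost without Mdivi-1 replicate 1 (DESeq2 adjusted p = 0.502) or control replicate 2 (0.0805), and the *Fgf4* call without Mdivi-1 replicate 1 (0.615), Mdivi-1 replicate 2 (0.121) or control replicate 1 (0.301). *Nr5a2*, a nuclear receptor gene, had 41.8 and 59.7 CPM in the Mdivi-1 libraries and 90.9 and 94.2 CPM in the control libraries (log2 fold change -0.87, DESeq2 adjusted p = 0.162). It is named here because it completes the 5. *Dppa3*, a maternal factor with the most reads of this list, had 13254 and 10865 CPM in the Mdivi-1 libraries, against 13042 and 21231 CPM in the control libraries, and its groups overlapped.

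In the trophectoderm list, 17 of 20 genes were tested and the median log2 fold change was 0.99, with 12 positive and 5 negative values. At an unadjusted p of 0.05 edgeR had 3 of the 17 higher and 0 lower (8.27% and 7.64% of all genes), and DESeq2 called none in either direction. The count of 3 became 1 without Mdivi-1 replicate 1 or Mdivi-1 replicate 2, and 2 without either control library. Both Mdivi-1 libraries lay above both controls in 10 of the 17 (26.1% of all genes) and below both in 2 (23.9%). Among the 10, *Aqp3* (0 and 8 control reads), *Gata2* (5 and 10) and *Arid3a* (25 and 4) had few reads in the controls. *Aqp3* passed the low-count filter only through the Mdivi-1 libraries. The count of 10 and the median thus rest in part on genes with few reads. The 3 genes higher at an unadjusted p of 0.05 were *Gata3*, *Fgfr2* and *Id2*.

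*Gata3*, a target of TEAD4 in outer cells, had 26.4 and 22.5 CPM in the Mdivi-1 libraries, against 10.5 and 9.45 CPM in the control libraries (log2 fold change 1.29, SE 0.44, edgeR adjusted p = 0.232). It was thus higher in both libraries in which *Tead4* was lower. *Fgfr2*, a receptor for FGF4, had 13.3 and 6.15 CPM in the Mdivi-1 libraries, against 2.09 and 2.03 CPM in the control libraries (log2 fold change 2.23, SE 0.81, edgeR adjusted p = 0.250). *Id2*, an inhibitor of basic helix-loop-helix factors and an early mark of outer cells, had 138 and 170 CPM in the Mdivi-1 libraries, against 56.0 and 99.3 CPM in the control libraries (log2 fold change 0.99, SE 0.36, edgeR adjusted p = 0.251). *Elf5*, which maintains trophoblast stem cells, had no read in any library. *Atp1b1*, a subunit of the sodium pump, was level, with 54.3 and 51.1 CPM in the Mdivi-1 libraries and 42.5 and 52.7 CPM in the control libraries. The genes lower without overlap were *Tspan8* and *Hand1*. *Tspan8* had 14.5 and 15.2 CPM in the Mdivi-1 libraries, against 24.9 and 20.6 CPM in the control libraries (log2 fold change -0.62, edgeR unadjusted p = 0.182). *Hand1* had 1.61 and 0.417 CPM in the Mdivi-1 libraries, against 4.46 and 1.90 CPM in the control libraries.

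Of 24 genes of the TEAD and Hippo pathway, 19 were tested. None reached an unadjusted p of 0.05 in either direction by edgeR, DESeq2 called none, and the median log2 fold change was -0.01. Without control replicate 1, 3 of them were higher at an unadjusted p of 0.05 by edgeR, and without control replicate 2, 1 was lower. *Yap1*, the coactivator of TEAD4, had 158 and 167 CPM in the Mdivi-1 libraries, against 123 and 93.2 CPM in the control libraries (edgeR unadjusted p = 0.0847, adjusted p = 0.381). *Amot*, an inhibitor of YAP1, had 12.1 and 9.33 CPM in the Mdivi-1 libraries, against 4.82 and 4.20 CPM in the control libraries (edgeR unadjusted p = 0.0916). Groups did not overlap in either gene, as was the case for 4 higher and 2 lower genes of the 19, beside 26.1% and 23.9% of all genes. *Wwc2*, a scaffold of the pathway, had 325 and 322 CPM in the Mdivi-1 libraries, against 240 and 208 CPM in the control libraries. The adaptor genes *Mob1a* (log2 fold change -0.01) and *Mob1b* (-0.03) were level.

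Of 20 primitive endoderm genes, 13 were tested, with a median log2 fold change of 0.45. *Dab2*, an endocytic adaptor, was higher at an unadjusted p of 0.05 and *Cited1*, a transcriptional coregulator, lower, 1 of 13 each way beside 8.27% and 7.64% of all genes, while DESeq2 called none. With a library left out the count of higher genes was 0 without Mdivi-1 replicate 1 or control replicate 1, 2 without Mdivi-1 replicate 2 and 3 without control replicate 2. The count of lower genes was 1 without control replicate 1 and 0 without any of the other libraries or with scaling by library totals. *Dab2* had 40.7 and 38.1 CPM in the Mdivi-1 libraries, against 16.3 and 19.7 CPM in the control libraries (log2 fold change 1.13, SE 0.37, edgeR adjusted p = 0.224). *Cited1* had 38.7 and 51.2 CPM in the Mdivi-1 libraries, against 62.2 and 111 CPM in the control libraries (log2 fold change -0.95, SE 0.38, edgeR adjusted p = 0.282). *Gata4*, the partner of GATA6, had 36.4 and 26.8 CPM in the Mdivi-1 libraries and 43.6 and 30.2 CPM in the control libraries, with overlap. The definitive markers *Sox17*, *Foxa2* and *Col4a1* had no read in any library.

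**Figure D3:**
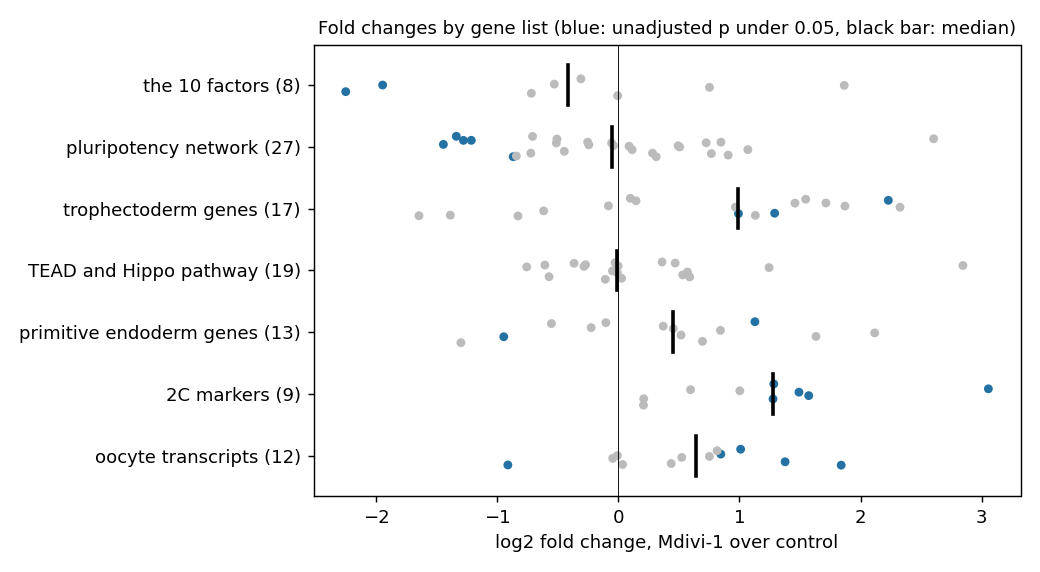
Log2 fold changes of Mdivi-1 over control by gene list, with the number of genes tested in brackets, a point for each gene (blue where the unadjusted p of edgeR was under 0.05) and a black bar at the median; the vertical position within a row is random. The 5 blue points of the pluripotency network are all left of 0 and the 3 of the trophectoderm genes right of it, while the TEAD and Hippo pathway has none.

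The DNA-binding families of the factors, in which the factors themselves are counted, were mixed. Among 11 tested SOX genes, 2 were higher and 3 lower at an unadjusted p of 0.05 (8.27% and 7.64% of all genes). These counts include *Sox8*, *Sox9* and *Sox21*, which passed the low-count filter only through the group in which they were high. *Sox8* had 15 and 23 reads in the Mdivi-1 libraries and 0 in both controls. *Sox9* had 0 and 1 reads in the Mdivi-1 libraries, against 29 and 25 in the controls, and *Sox21* 0 and 0, against 14 and 35. DESeq2 called 1 SOX gene lower (2.75% of all genes). That gene was *Sox15*, which can bind with POU5F1 in mouse stem cells, with 11.1 and 3.96 CPM in the Mdivi-1 libraries, against 30.4 and 27.4 CPM in the control libraries (log2 fold change -1.94, SE 0.58, edgeR adjusted p = 0.201, DESeq2 adjusted p = 0.0387). The call was lost without Mdivi-1 replicate 2 (DESeq2 adjusted p = 0.433), control replicate 1 (0.160) or control replicate 2 (0.152). *Sox15* thus lay opposite to *Sox2*, whose Mdivi-1 libraries were the higher ones. *Sox30* had 12.7 and 16.1 CPM in the Mdivi-1 libraries, against 4.60 and 5.12 CPM in the control libraries (log2 fold change 1.56, edgeR unadjusted p = 0.0281, DESeq2 adjusted p = 0.201). *Sox21*, a SOX2 target in mouse blastomeres at the next cleavage stage, had no read in the Mdivi-1 libraries, against 0.637 and 2.30 CPM in the control libraries.

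Among the POU genes, 8 of 13 were tested and none reached an unadjusted p of 0.05. *Pou2f3* had 5.90 and 2.50 CPM in the Mdivi-1 libraries, against 9.51 and 9.25 CPM in the control libraries, without overlap (edgeR unadjusted p = 0.160). *Tfap2e* was the AP-2 gene that reached an unadjusted p of 0.05, with 36.8 and 23.6 CPM in the Mdivi-1 libraries, against 14.9 and 11.4 CPM in the control libraries (log2 fold change 1.19, SE 0.44, edgeR adjusted p = 0.256). *Tfap2b* had 9.88 and 11.9 CPM in the Mdivi-1 libraries, against 4.87 and 2.30 CPM in the control libraries, so that both stood opposite to *Tfap2c*.

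Of the other TEAD genes, *Tead1* had 5.42 and 8.44 CPM in the Mdivi-1 libraries and 17.3 and 6.10 CPM in the control libraries, and *Tead2* had 4.03 and 0.834 CPM in the Mdivi-1 libraries and 3.64 and 1.12 CPM in the control libraries. Both overlapped between the groups, unlike *Tead4*. *Gata1*, best known from red cell precursors, had 27.2 and 25.0 CPM in the Mdivi-1 libraries, against 46.2 and 74.1 CPM in the control libraries (log2 fold change -1.21, SE 0.37, edgeR adjusted p = 0.212, DESeq2 adjusted p = 0.0754). Among the CDX genes none of the 3 could be tested, and *Cdx1*, like *Cdx2*, had no read.

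Of the PRDM genes, *Prdm10* had 17.4 and 14.4 CPM in the Mdivi-1 libraries, against 41.4 and 18.9 CPM in the control libraries, without overlap, and like *Prdm14* it had a negative log2 fold change (-0.92, edgeR unadjusted p = 0.0969). *Yy1*, a relative of *Zfp42*, had 232 and 174 CPM in the Mdivi-1 libraries and 192 and 266 CPM in the control libraries, and *Yy2* had 50.1 and 61.4 CPM in the Mdivi-1 libraries and 86.3 and 70.2 CPM in the control libraries. *Yy1* overlapped between the groups, as *Zfp42* did, and *Yy2* did not.

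**Figure D4:**
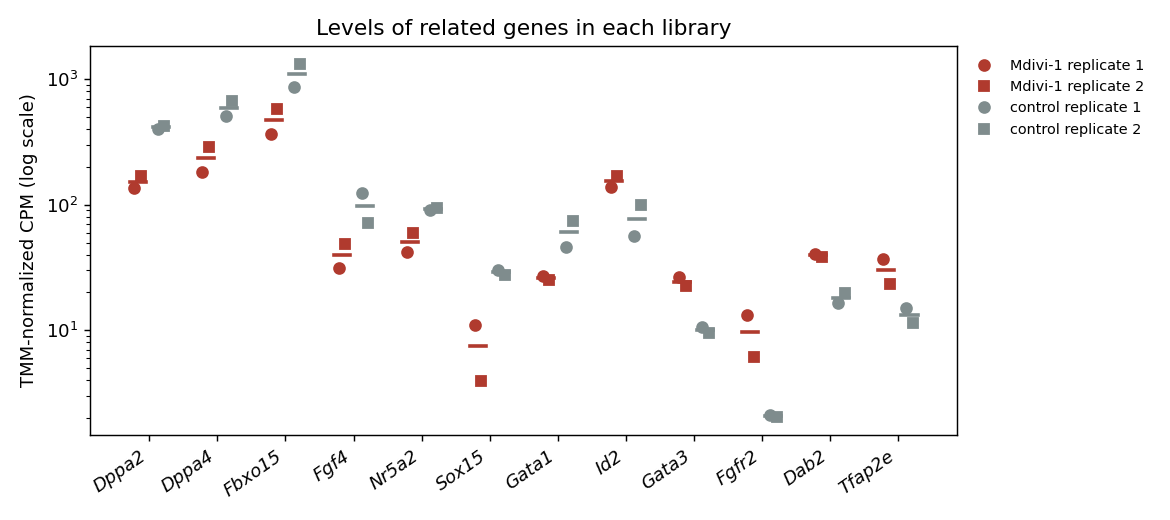
TMM-normalized CPM on a log scale in each library for 12 of the genes of the lists and families that reached an unadjusted p of 0.05 by edgeR, with Mdivi-1 libraries in red left of control libraries in grey and bars at group means. The 7 genes from *Dppa2* to *Gata1* lie lower in both Mdivi-1 libraries, and the 5 from *Id2* to *Tfap2e* higher in both.

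The genes most like each factor over the 4 libraries were found by the root mean square difference of their centred log2 CPM. For *Tead4* the nearest was *Sox15* (0.0957), and only 3 of the genes searched lay within 0.2. For *Prdm14* the nearest were *Kcnk6* (0.108) and *Klhl10* (0.191), the only 2 of the genes searched within 0.2. *Sox2* had 7 such genes, with *Stxbp4* (0.0844) the nearest. The patterns of *Tfap2c* (595 genes, nearest *Tmed5* at 0.0257), *Zfp42* (245, nearest *Faiml* at 0.0445), *Pou5f1* (57, nearest *Lrrc59* at 0.0355) and *Sall4* (49, nearest *Kdm4a* at 0.0325) were shared with many more. With 4 points each, such likeness is a description.

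Genes of other stages and cells also differed between the libraries, and their part in the values above was not tested. Of 9 markers of the 2C stage (such as *Zscan4* and *Tcstv* genes), all 9 had positive log2 fold changes, 5 were higher at an unadjusted p of 0.05 (8.27% of all genes) and DESeq2 called 4 higher (3.23% of all genes). Their summed level was 2480 and 2999 CPM in the Mdivi-1 libraries, against 1030 and 1889 CPM in the control libraries. Of 12 oocyte transcripts, 4 were higher and 1 lower at an unadjusted p of 0.05 (8.27% and 7.64% of all genes), and their sum was 5117 and 6004 CPM in the Mdivi-1 libraries, against 2374 and 4000 CPM in the control libraries. The 12 cumulus and granulosa cell markers summed to 22.0 and 22.7 CPM in the Mdivi-1 libraries, against 7.78 and 16.9 CPM in the control libraries, with *Has2*, *Ptx3*, *Inha* and *Amh* at 0 in all 4. Of the 4 tested, 3 had positive log2 fold changes and 1 a negative one. By edgeR 1, *Star*, was higher at an unadjusted p of 0.05 (8.27% of all genes), and DESeq2 called none. *Star* had 58 and 74 reads in the Mdivi-1 libraries, against 0 and 4 in the controls. It passed the low-count filter only through the Mdivi-1 libraries. The 6 sperm markers summed to at most 6.07 CPM in a library. The 6 blood markers summed to 57.6 and 51.0 CPM in the Mdivi-1 libraries, against 61.8 and 63.1 CPM in the control libraries. Most of this sum was a single gene, *Hba-a1* (54.8 and 46.8 CPM in the Mdivi-1 libraries, 59.3 and 56.7 CPM in the control libraries). *Hbb-bs* and *Hbb-bt* had no read in any library.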

How the data were processed

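Two-sided comparisons were made of 2 Mdivi-1 and 2 control libraries of late 2C embryos, grouped by the sample titles. Reads were trimmed by the authors (cutadapt 1.16) and aligned with STAR, whose GeneCounts option gave the deposited raw counts per gene and keeps uniquely mapped reads that fall on a single gene. The submitters' processing notes name mm10. The deposited table also holds a signal per library (the count divided by a size factor, by the authors) and its mean. Its remaining columns are results of the authors' own comparison, namely log2 fold changes with standard errors, a score (the Wald statistic) and p-values, deposited beside the counts; none of these was used. Of 26022 genes, 32 have no symbol. All columns could be assigned. Smart-Seq2 counts include amplified copies, so Poisson intervals cover counting error only.

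Raw counts were filtered with filterByExpr, normalized by TMM and tested with the quasi-likelihood test of edgeR 4.0.16 in R 4.3.3, and p-values were adjusted by Benjamini-Hochberg over the 14259 genes. TMM factors were 1.05 and 1.04 in the Mdivi-1 libraries and 1.10 and 0.834 in the control libraries, and the biological coefficient of variation was 0.660. Standard errors were worked back from the F statistic. DESeq2 1.42.0, limma-voom (limma 3.58.1), the likelihood ratio test of edgeR, other scalings and filters, a replicate block and leaving out each library were the alternatives. The test was tried first on simulated counts, which were set to vary less between libraries than these data do. That trial therefore does not show how the test performs at the spread seen here. Positions and exonic lengths, and with them levels per kilobase, are from GENCODE M21 on GRCm38, whereas the study's methods name GENCODE M23; most coordinates in the deposited table differ from M21 and were not used. Promoters are from RefSeq, matched by symbol.

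The 10 genes and all lists were chosen with earlier results of these data known. Besides the 10, the text names up to 3 genes of each list or family with the smallest unadjusted p and up to 2 with the highest mean CPM, the genes of nearest pattern, and copies. *Nr5a2*, *Elf5*, *Cdx1*, *Sox17*, *Foxa2*, *Col4a1* and the marker genes at 0 were named after their values were seen. Values for *Dux* are not analysed here, and a gene that this rule names is left out. *Il6st*, *Klf4*, *Aqp3*, *Arid3a*, *Hand1*, *Sox8* and *Sox9* were named after their values were seen.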

Additional observations from a re-analysis of the deposited data

How the results depend on the processing

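Under the replicate block no gene passed the adjusted threshold of edgeR (0 of 14259), and *Prdm14* had a log2 fold change of -2.48 with an edgeR adjusted p of 0.142. Over all genes tested, the deviations of Mdivi-1 replicate 1 and control replicate 1 from their group means had a correlation of 0.00809. This is a single value over all genes, so it cannot tell whether same-numbered libraries shared a litter or a batch. The count of genes past the threshold, 0 in the test reported, was 853 with DESeq2, 870 with the edgeR likelihood ratio test, 202 with limma-voom and 819 with no filter on low counts. *Prdm14*, 1 of the 10 factors, passed in each of these 4. Its adjusted p was 0.0168 with the edgeR likelihood ratio test, 0.0480 with limma-voom and 0.000604 with edgeR without the filter. With any library left out, the edgeR count was 0 to 803, that of the factors 0 to 1, that of factors at an unadjusted p of 0.05 was 1 to 4, and that of listed genes was 9 to 21 beside 18. By DESeq2 these were 82 to 1380 genes, 0 to 1 factors and 1 to 8 listed genes (6 with all libraries). Scaling by library totals alone moved the median of all genes to 0.14 beside 0.03, and the split at an unadjusted p of 0.05 to 1287 higher and 769 lower (62.6% higher beside 52.0%).

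Some log2 fold changes turned in sign. *Pou5f1* was 0.047 with library totals and 0.0057 with the replicate block, and ran from -0.62 to 0.63 with a library left out. *Mob1a* was 0.074 with library totals and 0.00146 with the block, *Mob1b* 0.078 with library totals, *Pou2f1* 0.096 with the block, and *Tead2* -0.33 with limma-voom and -0.13 with the block. With a library left out, the ranges were -0.91 to 0.67 for *Sall4* (-0.91 to 0.63 by DESeq2, where the adjusted p without control replicate 2 was 0.0367), -0.26 to 8.29 for *Gata6*, -0.0088 to 0.28 for *Atp1b1*, -0.49 to 0.058 for *Gata4*, -0.28 to 0.28 for *Mob1a*, -0.33 to 0.20 for *Mob1b*, -0.86 to 1.04 for *Pou2f1*, -0.12 to 0.43 for *Prdm2*, -1.06 to 0.034 for *Prdm4*, -0.064 to 1.86 for *Sall1*, -1.34 to 0.18 for *Tead1*, -1.51 to 1.11 for *Tead2* and -0.40 to 0.053 for *Yy1*. The cause was not tested. *Prdm14*, *Tead4*, *Tfap2c*, *Zfp42* and *Sox2* kept their direction under every alternative run. Counts of 0 to 57 reads limit *Nanog*, *Cdx2*, *Gata6* and *Pou5f1*.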

Other observations

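*Gata6os*, a non-coding gene that starts beside *Gata6*, was looked at after its values were seen. It had 14 and 18 reads in the Mdivi-1 libraries, against 125 and 66 in the control libraries. In CPM this was 0.751 and 0.938 in the Mdivi-1 group, against 5.69 and 4.33 in the control group, with a log2 fold change of -2.56 (SE 1.14, edgeR unadjusted p = 0.0561, adjusted p = 0.327, DESeq2 adjusted p = 0.215). The groups did not overlap, while those of *Gata6* did, and control replicate 2, which had no *Gata6* read, had 66 reads of *Gata6os*. Neither gene passed the test. *Pou5f2*, an intronless relative of *Pou5f1*, had 0 and 26 reads in the Mdivi-1 libraries and 1 and 0 in the control libraries, so its reads came almost only from Mdivi-1 replicate 2.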
